A study of Mus musculus with 8 samples.

Results

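The genes described here are 10 integrin chains that T cells are known to use, the alpha chains Itga1, Itga2, Itga4, Itga6, Itgae and Itgal and the beta chains Itgb1, Itgb2, Itgb3 and Itgb7, out of 38215 genes in the deposited tables. They were chosen by name, with earlier results of these data known, and read as alpha and beta partners. All 10 passed the expression filter that left 13397 genes to test. Libraries were made from FoxP3+ cells of the bone marrow (BM-Treg, 4 libraries) and the spleen (SP-Treg, 4 libraries), sorted out of B6.FoxP3-GFP mice, in which a green fluorescent protein marks the cells that express FoxP3. The question was how Treg that live in the marrow differ in transcription from those of the spleen. The age was 12 weeks in both groups, no treatment is named, and the labels give the genotype as C57Bl/6. BM-Treg replicates 1 to 3 came from females in batch 1, whereas males in batch 3 gave BM-Treg replicate 4 and all of SP-Treg, so sex and batch cannot be told apart from each other, and 1 BM-Treg library shares both with SP-Treg. Each library is a bulk sample of sorted cells, and the number of mice behind a library was not given in the sources used here. The names of the SP-Treg libraries could be read as ranges of animals that overlap, so some may share mice, and p-values measure only the spread between these libraries, which would then be too small.

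Integrins are receptors that sit in the membrane as a pair of 1 alpha and 1 beta chain, and a chain without its partner is poorly carried to the surface. The beta chain sets which alpha chains can pair: β7 takes αE or α4, β1 takes α1, α2, α4, α6 and others, β2 takes αL and the myeloid alpha chains, and β3 takes αv or αIIb. In T cells αLβ2 (LFA-1) binds ICAM proteins, α4β1 (VLA-4) binds VCAM-1 and fibronectin, α4β7 binds the gut addressin MAdCAM-1, αEβ7 (CD103) binds E-cadherin, α6β1 binds laminins, and α1β1 and α2β1 bind collagens. Surface pairs were not measured here, and the values below are levels of messenger RNA.

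Expected counts on genes were between 12427136 and 21921252 per library. The Treg identity of the libraries was checked with 12 markers, all detected, whose summed level was 8625 to 10380 CPM (counts scaled to the size of each library) in BM-Treg and 9614 to 10260 CPM in SP-Treg, and none of the 12 passed the test. Foxp3 itself, the transcription factor that defines the lineage, was at 1497, 1660.0, 1735 and 2081 CPM in BM-Treg and 1372, 1457, 1721 and 1272 CPM in SP-Treg, with a log2 fold change of 0.26 ± 0.13 (SE) and an adjusted p of 0.241 by edgeR's quasi-likelihood test. Markers of other cells were summed in the same way. The 2 CD8 T cell markers came to 10.9 to 12.6 CPM in BM-Treg and 13.2 to 41.0 CPM in SP-Treg, 8 natural killer markers to 3.12 to 4.12 and 3.45 to 14.1 CPM, 12 platelet markers to 2.15 to 4.26 and 1.69 to 4.10 CPM, and 6 mast cell and basophil markers to at most 0.383 and 0.514 CPM. The 10 neutrophil markers came to 1.31 to 10.6 CPM in BM-Treg and 0.216 to 19.1 CPM in SP-Treg, 8 macrophage markers to 14.3 to 20.4 and 14.2 to 35.9 CPM, and 6 plasmacytoid dendritic cell markers to 48.0 to 57.7 and 25.9 to 63.0 CPM. Of these 6, Ccr9 was at 28.95 to 39.6 and 8.77 to 41.7 CPM. Bst2 was at 4.87 to 11.8 and 8.12 to 12.7 CPM, and Tcf4 at 6.18 to 9.91 and 7.19 to 15.4 CPM. The other 3, Siglech, Klk1 and Cox6a2, were under 1 CPM in every library. B cell transcripts (7 markers) were at 13.5 to 19.2 CPM in BM-Treg and 13.6 to 141.5 CPM in SP-Treg, highest in SP-Treg replicate 2, and 7 erythroid markers were at 14.3 to 33.8 and 1.87 to 478.1 CPM, highest in SP-Treg replicate 3.

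Of the 10 integrin chains, Itgae and Itga6 passed the test and were both lower in BM-Treg, none was higher, and 8 did not pass. Among all genes tested 8.75% passed, 5.02% as lower and 3.72% as higher in BM-Treg. Itga2 and Itga1, the collagen-binding alpha chains, had the largest positive fold changes without passing. The libraries of both tissues did not overlap in CPM for 5 of the 10 chains, against 16.2% of all genes tested: Itgae, Itga6 and Itgal lay lower (8.56% of all genes) and Itga1 and Itga2 higher (7.6% of all genes) in every BM-Treg library. Each of these 5 is an alpha chain, and the 4 beta chains overlapped between the tissues. The median log2 fold change was 0.11 over the 10 chains and -0.01 over all genes. In bulk samples, fewer cells that express a chain and less RNA of it per cell cannot be told apart.

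**Figure D1:**
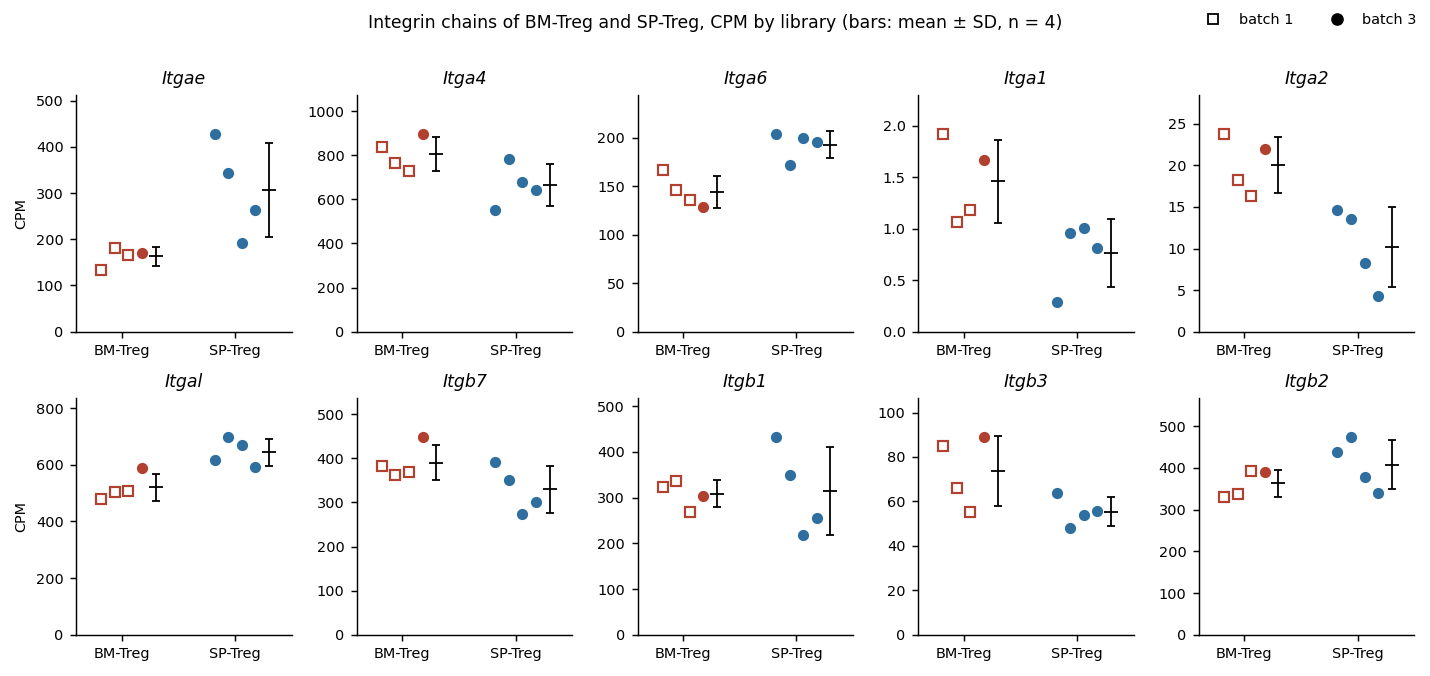
Level of each integrin chain in CPM on an axis from 0, with 1 point per library, open squares for batch 1, filled circles for batch 3, and bars for the mean ± SD of 4 libraries. Itgae and Itga6 lie lower and Itga2 and Itga1 higher in all BM-Treg libraries, whereas the beta chains in the lower row overlap.

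The β7 pair was read first. Itgae codes for αE, which pairs with no other beta chain than β7. It was at 135, 182, 166 and 171 CPM in BM-Treg and 427, 343, 193 and 263 CPM in SP-Treg. Every BM-Treg library was below every SP-Treg library, and the spread lay in the spleen, where replicate 1 was highest and replicate 3 came near the marrow. The log2 fold change was -0.91 ± 0.22 (SE), a level 1.88-fold higher in SP-Treg (adjusted p = 0.0276, edgeR). BM-Treg replicate 4, from the same batch and sex as the spleen, was below all 4 SP-Treg libraries, with a log2 fold change of -0.78 within batch 3. The call did not last in fits without BM-Treg replicate 1, 2, 3 or 4 or SP-Treg replicate 2 (adjusted p from 0.058 to 0.0869, edgeR), nor with a batch term (adjusted p = 0.289) or without a filter on low counts (0.117), nor on log2(FPKM + 1) with limma (adjusted p = 0.0814). Cd8a, whose cells can carry αE, was at 0.931, 1.71, 0.876 and 0.835 CPM in BM-Treg and 1.80, 21.0, 6.604 and 6.02 CPM in SP-Treg, with a log2 fold change of -2.99 that passed the test (adjusted p = 0.0293, edgeR). Cd8b1, the other CD8 marker, was at 11.7, 10.1, 11.2 and 10.02 CPM in BM-Treg and 11.4, 19.99, 16.1 and 10.6 CPM in SP-Treg, with overlap, and did not pass (log2 fold change -0.43, adjusted p = 0.2101, edgeR). Itgax, which marks dendritic cells, some of which carry αE, was at 0.0547 to 1.71 CPM in BM-Treg and 0.367 to 3.43 CPM in SP-Treg, with overlap. The part of CD8 T cells and of dendritic cells in the Itgae result was not tested.

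Itgae lies at chr11:73090583-73147446 on the plus strand (GRCm38), and its reads were divided by the authors' software between a pair of transcripts that part at exon 26 of 31. Itgae-201 codes for the full chain. Itgae-202, annotated as a retained intron, reads on from that exon into the intron and stops there, so that it lacks the 5 last exons. Both sequences are shown because the choice between them decides whether a read counts towards a transcript that can code for the full chain. The 40 bases they share at the end of exon 26 (chr11:73134059-73134098) are in lower case and the 57 bases that follow are in capitals, at chr11:73138455-73138511 in Itgae-201 and at chr11:73134099-73134155 in Itgae-202.
Itgae-201: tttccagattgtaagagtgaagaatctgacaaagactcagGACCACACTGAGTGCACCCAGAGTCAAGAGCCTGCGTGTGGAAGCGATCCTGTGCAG
Itgae-202: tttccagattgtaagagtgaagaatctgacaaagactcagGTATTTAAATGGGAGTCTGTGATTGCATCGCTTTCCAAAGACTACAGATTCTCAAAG

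Itgae-202 held 39.1, 38.96, 30.99 and 32.97% in BM-Treg and 20.8, 26.6, 37.2 and 30.9% in SP-Treg of the expected counts of the gene. The shares overlapped, with the lowest share in SP-Treg replicate 1, where the gene was highest. Counted alone, the coding transcript Itgae-201 was at 81.9, 111, 115 and 115 CPM in BM-Treg and 339, 252, 121 and 182 CPM in SP-Treg, and Itgae-202 was at 52.7, 70.9, 51.4 and 56.3 CPM in BM-Treg and 88.9, 91.2, 71.6 and 81.3 CPM in SP-Treg. Each of the transcripts was thus higher in every SP-Treg library, with mean levels of 106 ± 15.8 and 223 ± 93.5 CPM for the coding one (SD, n = 4 each). The intron that follows exon 26 also holds Gsg2, the gene of the mitotic kinase haspin, on the opposite strand at chr11:73135485-73138294. The library kit did not keep the strand, so reads of Gsg2 and of unspliced Itgae cannot be told apart there. Itgae-202 ends at chr11:73134834, before Gsg2 begins, and Itgae-201 skips this intron. The overlap with Gsg2 thus bears on the value of Gsg2 and not on the exons of these transcripts. The bases of Itgae-202 past exon 26 are the start of this intron, however. Reads of unspliced Itgae there cannot be told from Itgae-202. Gsg2 was at 27.9, 29.4, 24.5 and 35 CPM in BM-Treg and 37.9, 36.7, 38.03 and 42.4 CPM in SP-Treg, also lower in every BM-Treg library, and did not pass the test (log2 fold change -0.41 ± 0.13, adjusted p = 0.0557, edgeR).

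Itgb7, the partner chain, was at 383, 363, 369 and 448 CPM in BM-Treg and 391, 352, 273 and 302 CPM in SP-Treg. The tissues overlapped, the highest library was from the marrow, and the lowest pair was from the spleen. Its log2 fold change was 0.24 ± 0.12 (adjusted p = 0.245, edgeR), opposite in sign to that of Itgae, and it did not pass the test. Within the spleen Itgae, Itgb7 and Itgb1 went in 1 order, with replicate 1 above 2, 4 and 3. None of the other chains of the group had this order.

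Itga4, the alpha chain that pairs with both β7 and β1, was at 839, 764, 727 and 895 CPM in BM-Treg and 553, 781, 679 and 642 CPM in SP-Treg. SP-Treg replicate 2 reached into the range of the marrow and the other spleen libraries were below it. The log2 fold change was 0.28 ± 0.12 and did not pass (adjusted p = 0.171, edgeR). Its 3' end overlaps Cerkl, a ceramide kinase-like gene on the opposite strand, which was at 3.94 to 7.99 CPM in BM-Treg and 4.85 to 5.58 CPM in SP-Treg and did not pass (log2 fold change 0.22 ± 0.26, adjusted p = 0.664, edgeR). On the FPKM scale, in which counts are divided by transcript length and depth, Itga4 was at 110.0, 99.97, 91.6 and 101 FPKM in BM-Treg and 73.8, 88, 77.4 and 78.1 FPKM in SP-Treg. On this scale the 4 marrow libraries lay above the 4 of the spleen. The log2 fold change on log2(FPKM + 1) was 0.34 and did not pass (adjusted p = 0.103, limma). The median over all genes tested was 0.05 there and -0.01 on counts.

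Read together, the ratio of Itgae to Itgb7 in FPKM was 0.241, 0.346, 0.311 and 0.264 in BM-Treg and 0.754, 0.674, 0.487 and 0.602 in SP-Treg. The lowest spleen ratio was above the highest marrow ratio, whereas in FPKM Itgae alone overlapped between SP-Treg replicate 3 (47.4) and BM-Treg replicate 2 (50.9). The mean log2 ratio was -1.80 ± 0.23 in BM-Treg and -0.69 ± 0.27 in SP-Treg (SD, n = 4 each), a difference of -1.11. The ratio of Itga4 to Itgb7 was 0.713, 0.68, 0.6195 and 0.605 in BM-Treg and 0.455, 0.687, 0.796 and 0.697 in SP-Treg, and the ranges overlapped. Of the summed FPKM of Itgae and Itga4, the share of Itgae was 25.3, 33.7, 33.4 and 30.3% in BM-Treg and 62.3, 49.5, 38.0 and 46.4% in SP-Treg. The sum itself was 145.0 ± 5.62 FPKM in BM-Treg and 160.2 ± 31.3 FPKM in SP-Treg (SD, n = 4 each), so the alpha chains that β7 can take differed between the tissues in their proportions, without overlap, and overlapped in their sum. These ratios carry no test, and the FPKM of a gene adds up all its transcripts, Itgae-202 among them.

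**Figure D2:**
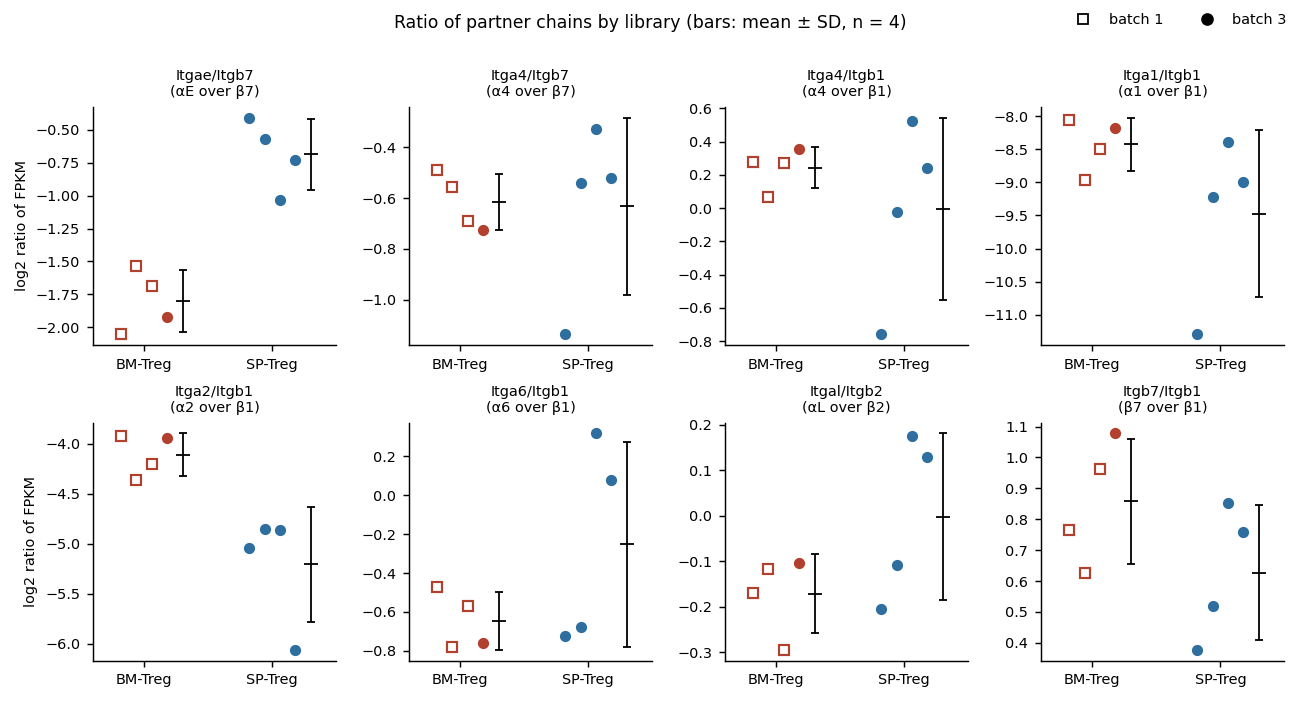
Log2 ratio of the FPKM of partner chains in each library, with open squares for batch 1, filled circles for batch 3, bars for the mean ± SD of 4 libraries, and axes that differ between panels. The tissues do not overlap for Itgae over Itgb7, which is higher in SP-Treg, and for Itga2 over Itgb1, which is higher in BM-Treg.

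The β1 family came next. Itgb1, the beta chain shared by most alpha chains, was at 323, 337, 269 and 304 CPM in BM-Treg and 431, 350.0, 217 and 256 CPM in SP-Treg. The marrow libraries lay inside the wider spleen range, and the means were 308 ± 29.4 and 314 ± 96.3 CPM (SD, n = 4 each). The test gave a log2 fold change of -0.03 ± 0.19 (adjusted p = 0.951, edgeR), and its sign turned with the setting, from -0.17 to 0.18 over fits that left out 1 library.

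Itga6, which with β1 forms a laminin receptor, was at 167, 146, 135 and 129 CPM in BM-Treg and 203, 172, 199 and 196 CPM in SP-Treg. Every BM-Treg library was below every SP-Treg library, although BM-Treg replicate 1 and SP-Treg replicate 2 came close. This was a log2 fold change of -0.42 ± 0.10, a level 1.34-fold higher in SP-Treg (adjusted p = 0.0226, edgeR). BM-Treg replicate 4 was the lowest of the 8 libraries, and within batch 3 the log2 fold change was -0.58. The call did not last without BM-Treg replicate 2, 3 or 4 or SP-Treg replicate 1 (adjusted p from 0.053 to 0.0735, edgeR) or with a batch term (adjusted p = 0.0876). On the FPKM scale the tissues overlapped, since SP-Treg replicate 2 was at 56.0 FPKM and BM-Treg replicate 1 at 65.4 FPKM, and the log2 fold change there was -0.30 (adjusted p = 0.242, limma). The ratio of Itga6 to Itgb1 in FPKM was 0.72, 0.582, 0.674 and 0.591 in BM-Treg and 0.606, 0.626, 1.25 and 1.05 in SP-Treg, with SP-Treg replicates 1 and 2 among the marrow libraries and 3 and 4 above them. Platelets and megakaryocytes also carry α6. Their 12 markers, whose sums overlapped between the tissues, held 2 that were tested and did not pass, Gp1ba at 0.931 to 1.81 CPM in BM-Treg and 0.6604 to 1.51 CPM in SP-Treg, and Itga2b at 0.741 to 2.59 and 0.575 to 1.42 CPM. The other 10 were under 1 CPM in every library, 2 of them, Gp6 and Treml1, at 0 in all 8, and the part of these cells in the Itga6 result was not tested.

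Itga6 lies at chr2:71745616-71858416 on the plus strand and is known for 2 cytoplasmic tails, A and B, that depend on whether the next to last exon is used. The junctions are shown because they are where the tails part. The 40 bases before the junction (chr2:71849467-71849506) are in lower case, and the capitals are the 57 bases that follow, which are the start of the A exon (chr2:71853534-71853590, exon 25 of 26) in Itga6-201 and the start of the exon after it (chr2:71855854-71855910) in Itga6-203, which skips the A exon of 130 bases.
Itga6-201: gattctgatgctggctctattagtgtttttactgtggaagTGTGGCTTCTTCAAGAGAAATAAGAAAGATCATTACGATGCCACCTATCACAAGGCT
Itga6-203: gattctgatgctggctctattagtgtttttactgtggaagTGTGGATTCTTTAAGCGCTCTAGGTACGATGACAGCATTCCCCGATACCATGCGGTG

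Itga6-203, a noncoding fragment of 3 exons with a last exon of 2563 bases, held 46.7, 47.7, 52.6 and 45.5% in BM-Treg and 47.6, 51.1, 49.1 and 49.6% in SP-Treg of the expected counts. Itga6-201, which codes for the chain with the A tail and has a last exon of 905 bases, held 30.2, 32.4, 33.3 and 31.3% in BM-Treg and 38.3, 33.6, 30.1 and 33.1% in SP-Treg. Itga6-202, the annotated coding transcript with the B tail, held 0% in every library. The shares overlapped between the tissues for each of the 3. Since Itga6-203 differs from the coding transcripts also in the length of its 3' end, its share does not measure how often the A exon was skipped. Counted alone, Itga6-201 was at 50.3, 47.3, 45.03 and 40.2 CPM in BM-Treg and 77.8, 57.8, 60.0 and 64.9 CPM in SP-Treg, again lower in every BM-Treg library.

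The collagen-binding chains Itga2 and Itga1 are neighbours on the minus strand of chromosome 13 (chr13:114835916-114932041 and chr13:114958079-115101964), 26037 bases apart. Itga2 was at 23.8, 18.3, 16.3 and 21.97 CPM in BM-Treg and 14.6, 13.5, 8.28 and 4.26 CPM in SP-Treg. All marrow libraries lay above those of the spleen, and SP-Treg replicate 4 was lowest. With a log2 fold change of 0.98 ± 0.32, it was at a level 1.97-fold higher in BM-Treg that did not pass (adjusted p = 0.0874, edgeR), although it passed with DESeq2 (adjusted p = 0.0113), with limma-voom (0.0472) and without SP-Treg replicate 1 (adjusted p = 0.0398, edgeR). It did not pass with a batch term (adjusted p = 0.287, edgeR), without a filter on low counts (0.194) or on log2(FPKM + 1) with limma (adjusted p = 0.0644). Nor did it pass in the other 7 fits that left out 1 library (adjusted p from 0.0538 to 0.188, edgeR). Within batch 3 the log2 fold change was 1.25. Natural killer cells carry α2. Of their 8 markers 5, Ncr1, Klrb1c, Klra8, Klra4 and Klre1, were at 0 in the 4 BM-Treg libraries, and Eomes was at 0 to 0.482 CPM there. The remaining 2 were tested. Gzma was lower in BM-Treg, at 0.418 to 1.85 CPM against 1.80 to 6.37 CPM (log2 fold change -1.99, adjusted p = 0.0216, edgeR), and Prf1 was at 1.97 to 3.43 CPM against 0.862 to 2.63 CPM and did not pass (log2 fold change 0.43, adjusted p = 0.561, edgeR). The part of natural killer cells in the values of Itga2 was not tested.

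Itga1 was far lower, at 1.92, 1.07, 1.18 and 1.67 CPM in BM-Treg and 0.287, 0.956, 1.003 and 0.807 CPM in SP-Treg, which were 20 to 35 expected counts per library in BM-Treg and 4 to 12 in SP-Treg. The ranges did not overlap, by a narrow margin between 1.065 and 1.003 CPM. Its log2 fold change of 0.93 ± 0.47 did not pass (adjusted p = 0.251, edgeR) at this depth. Pelo, a ribosome rescue factor whose gene lies inside Itga1 on the same strand, was at 3.18 to 5.35 CPM in BM-Treg and 3.11 to 5.68 CPM in SP-Treg, above Itga1 in every library, and the division of reads between them is the authors' estimate. Pelo did not pass the test (log2 fold change -0.14 ± 0.28, adjusted p = 0.8101, edgeR). Against their beta chain, the ratio of Itga2 to Itgb1 in FPKM was 0.0658, 0.0487, 0.0542 and 0.0651 in BM-Treg and 0.0304, 0.0345, 0.0343 and 0.01495 in SP-Treg, with no overlap and a difference of 1.10 on the log2 scale. The ratio of Itga1 to Itgb1 was at most 0.00374 in any library. The ratio of Itga4 to Itgb1 was 1.21, 1.05, 1.21 and 1.28 in BM-Treg and 0.591, 0.984, 1.44 and 1.18 in SP-Treg, and the marrow libraries lay within the spleen range.

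LFA-1 was read as Itgal and Itgb2. Itgal, the αL chain, was at 479.6, 505, 509 and 589.5 CPM in BM-Treg and 617, 696, 669 and 591 CPM in SP-Treg. The tissues just failed to overlap, with BM-Treg replicate 4 at 589.5 CPM and SP-Treg replicate 4 at 591.1 CPM. Its log2 fold change was -0.31 ± 0.10 and did not pass (adjusted p = 0.0854, edgeR), although it did with DESeq2 (adjusted p = 0.0338), and within batch 3 it was -0.12. Itgb2 was at 330.1, 338, 392 and 391 CPM in BM-Treg and 437, 473, 379 and 341 CPM in SP-Treg, with overlap and a log2 fold change of -0.17 ± 0.12 (adjusted p = 0.429, edgeR). Both chains had the same sign, and the ratio of Itgal to Itgb2 in FPKM was 0.889, 0.922, 0.815 and 0.9299 in BM-Treg and 0.868, 0.927, 1.13 and 1.09 in SP-Treg, which overlapped. In both genes more than 1 transcript shared the counts. The largest share in Itgal was that of Itgal-203, with 21 exons and a coding sequence of 2295 bases. It held 63.25 to 73.3% in BM-Treg and 65.05 to 73.8% in SP-Treg. Itgal-201, with 31 exons and a coding sequence of 3486 bases, held 24.1 to 31.3% and 20.8 to 32.9%. The coding Itgb2-201 held 36.5 to 53.4% in BM-Treg and 48.5 to 55.3% in SP-Treg, and Itgb2-205, annotated as a target of nonsense-mediated decay, held 42.8 to 53.7% and 41.8 to 49.2%.

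Itgb3, which in T cells pairs with αv to bind vitronectin and other ligands, was at 85, 65.95, 55.4 and 88.8 CPM in BM-Treg and 63.8, 48.03, 53.9 and 55.8 CPM in SP-Treg. BM-Treg replicates 1, 2 and 4 were above the spleen and replicate 3 was within its range. The log2 fold change was 0.41 ± 0.15 and did not pass (adjusted p = 0.103, edgeR), although it did without BM-Treg replicate 3 (0.53, adjusted p = 0.0386, edgeR) and without a filter on low counts (0.43, adjusted p = 0.0432, edgeR). Itga2b, the platelet partner of β3, was at 0.741 to 2.59 CPM in BM-Treg and 0.575 to 1.42 CPM in SP-Treg, with overlap (log2 fold change 0.62 ± 0.52, adjusted p = 0.525, edgeR).

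The order of levels between the chains was read in FPKM, which sums all transcripts of a gene, coding or not. The noncoding Itga6-203 held a mean of 49.4% of the FPKM of its gene in BM-Treg and 52.5% in SP-Treg. For Itgb2-205 these shares were 52.5 and 50.2%, and for Itgae-202 they were 35.6 and 29.0%. The order is thus that of gene totals and not of coding transcripts. In BM-Treg Itgb7 (154 ± 8.77 FPKM, SD, n = 4), Itgb2 (145 ± 10.4) and Itgal (128 ± 8.11) came first, each overlapping its neighbour, followed by Itga4 (101 ± 7.53) and Itgb1 (85.2 ± 9.36), which overlapped, and by Itga6 (54.6 ± 8.06) and Itgae (44.5 ± 5.66), which also overlapped. Itgb3 (13.2 ± 2.53 FPKM), Itga2 (4.96 ± 0.794) and Itga1 (0.253 ± 0.0675) followed, each below every library of the chain before it. In SP-Treg the order began with Itgb2 (154 ± 27.5 FPKM), Itgal (153 ± 9.42) and Itgb7 (125 ± 27.8), and went on through Itgb1 (83.6 ± 31.2), Itgae (80.9 ± 31.8), Itga4 (79.3 ± 6.08) and Itga6 (67.1 ± 8.24), all overlapping their neighbours. The last places were again those of Itgb3 (9.54 ± 1.76 FPKM), Itga2 (2.43 ± 1.25) and Itga1 (0.123 ± 0.0499), each separate from the chain before. Itgae held place 7 in the marrow and place 5 in the spleen. The coefficient of variation in CPM between libraries was larger in the spleen for 7 of the 10 chains and larger in the marrow for 3. Itgae had 33.03% in the spleen against 12.4% in the marrow, Itgb1 had 30.7% and 9.56%, and Itga2 had 47.3% and 16.9%. The reverse held for Itgb3 (11.8% in the spleen and 21.5% in the marrow), Itga6 (7.31% and 11.6%) and Itgal (7.44% and 9.15%). The share over all genes was not taken. Between pairs of libraries, over genes with a mean count of at least 50, chi-square per degree of freedom was 19.4 to 91.7 in the spleen. It was 14.35 to 44.5 in the marrow, so a wider spread in the spleen is not particular to these chains.

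**Figure D3:**
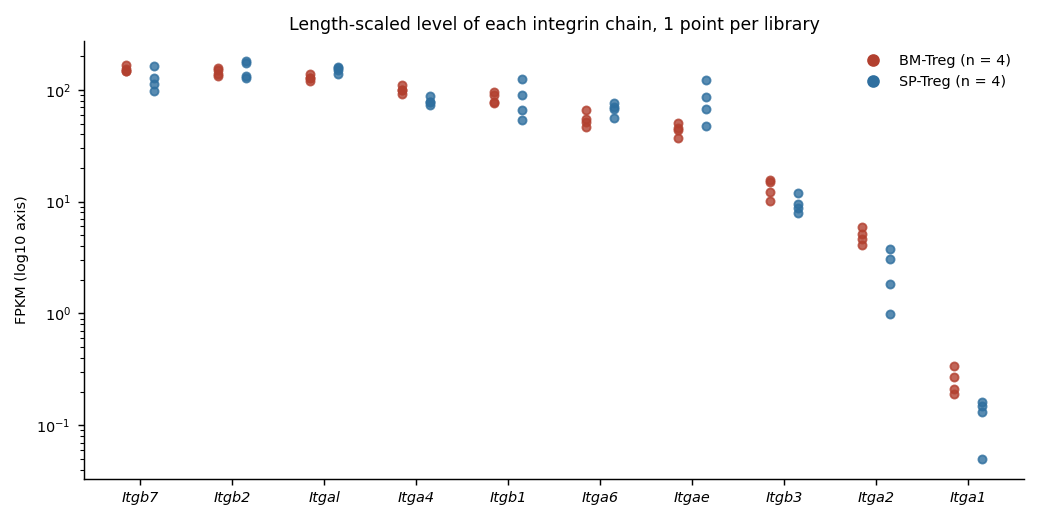
Level of the 10 integrin chains in FPKM on a log10 axis, ordered by their mean in BM-Treg, with 1 point per library and 4 libraries per tissue. The levels run from about the same height for Itgb7, Itgb2 and Itgal down to Itga1, which is under 0.35 FPKM in every library.

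Of 17 other integrin chains in the tables, 11 passed the expression filter, 1 was called, as lower in BM-Treg, and none was higher (8.75% of all genes were called). The one called was Itgb8, which with αv activates latent TGF-β and is a known chain of Treg. It was at 44.3, 60.9, 64.5 and 37 CPM in BM-Treg and 140.1, 96.5, 93.9 and 90.9 CPM in SP-Treg, without overlap. It had a log2 fold change of -1.02 ± 0.19 (adjusted p = 0.0078, edgeR), and -1.48 within batch 3. Its partner Itgav, shared with β3, was at 124, 122, 129 and 116 CPM in BM-Treg and 178, 130.4, 151 and 126 CPM in SP-Treg, with overlap, and did not pass (log2 fold change -0.26 ± 0.11, adjusted p = 0.189, edgeR), and the sign of Itgav turned on the FPKM scale (0.08).

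Itgam, the myeloid αM chain of β2, was at 25.2, 19.7, 16.2 and 25.1 CPM in BM-Treg and 14.3, 25.2, 9.03 and 6.09 CPM in SP-Treg, with a log2 fold change of 0.66 ± 0.39 (adjusted p = 0.361, edgeR) that passed without SP-Treg replicate 2 (1.13, adjusted p = 0.0266, edgeR). SP-Treg replicate 2 was also the library with the highest sums of neutrophil, macrophage, natural killer, B cell and CD8 T cell markers. The part of other cells in Itgam was not tested. Itga3, a laminin-binding partner of β1, was at 9.69 to 12.5 CPM in BM-Treg and 5.72 to 12.2 CPM in SP-Treg (log2 fold change 0.35 ± 0.22, adjusted p = 0.356, edgeR). The others were at less than 5 CPM in every library: Itga5 at 0.637 to 4.18, Itga7 at 0.418 to 1.25, Itga10 at 1.002 to 4.62, Itga11 at 0.637 to 1.92, Itgax at 0.0547 to 3.43 and Itgb5 at 0.752 to 1.58 CPM, with adjusted p from 0.567 to 0.930 (edgeR).

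**Figure D4:**
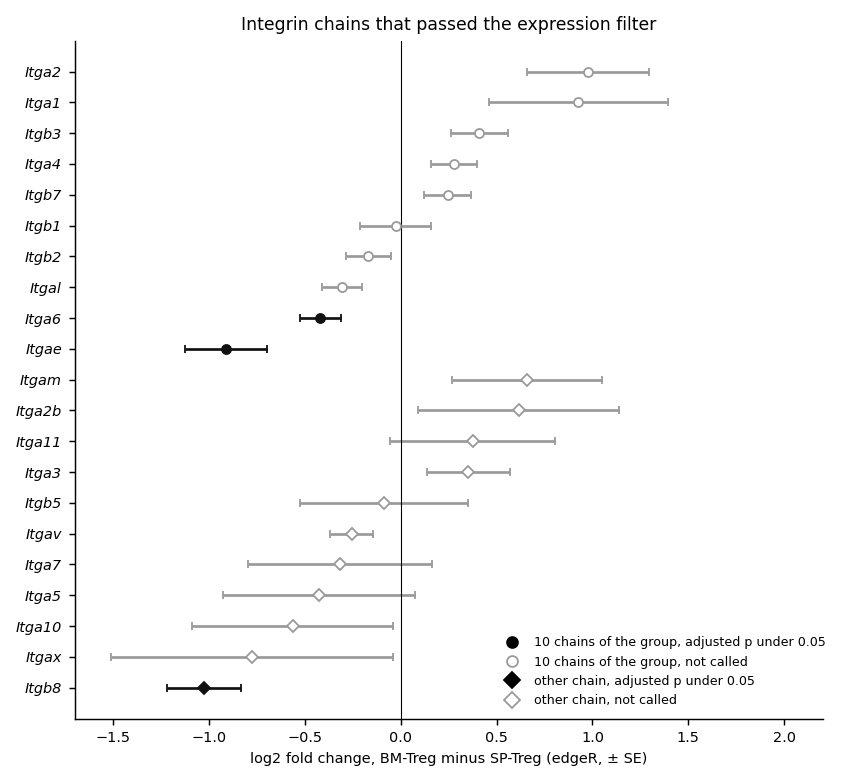
Log2 fold change of BM-Treg minus SP-Treg with its SE from edgeR for the 10 integrin chains (circles) and the 11 other chains that passed the filter (diamonds), filled where the adjusted p was under 0.05. The filled points are Itgae, Itga6 and Itgb8, all left of 0, where levels are lower in BM-Treg.

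Genes around the integrins were described from lists of their regulators, partners and ligands, chosen with earlier results of these data known. The shares called are set beside those of all genes as a description, without a test of the lists. Over these 5 lists and the other chains, 76 of 102 genes were tested, and 15 were called, 8 higher and 7 lower in BM-Treg (19.7%, against 8.75% of all genes). Of the 7 lower, Ptk2, Vcam1 and Lama5 passed the expression filter through SP-Treg only. With at least 10 counts in every library, 65 genes were tested, 8 called higher and 4 lower (edgeR). The median log2 fold change was 0.05 over the 76 genes. The activation list holds genes of the talin, kindlin and Rap1 path that turns integrins to their binding form, and 2 of its 16 tested genes rose and 1 fell (18.8% called). Fermt3, the kindlin of blood cells, was at 119.8, 125, 138 and 145 CPM in BM-Treg and 79.2, 93.99, 92.5 and 95.8 CPM in SP-Treg, with every BM-Treg library above the spleen (log2 fold change 0.55 ± 0.10, adjusted p = 0.0044, edgeR). Apbb1ip, the adaptor RIAM that links Rap1 to talin, was also higher without overlap (log2 fold change 0.45 ± 0.097, adjusted p = 0.0099, edgeR), at 247.1 to 286.4 CPM in BM-Treg and 178.6 to 214.1 CPM in SP-Treg. Rapgef6, an exchange factor for Rap1, was lower (log2 fold change -0.34 ± 0.10, adjusted p = 0.0485, edgeR), and this call was lost whichever of the 8 libraries was left out (adjusted p from 0.0605 to 0.135, edgeR), while on the FPKM scale its log2 fold change was -0.11. Talin itself, Tln1, did not pass (log2 fold change 0.21, adjusted p = 0.212, edgeR), and it is named here after its values were seen.

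All 11 genes of the restraint list, which hold integrins or Rap1 inactive, were tested, and 3 rose and 1 fell (36.4% called, against 8.75% of all genes, 3.72% as higher and 5.02% as lower). Dok2, an adaptor that competes for the beta tails, was at 54.9, 61.2, 71.3 and 67.6 CPM in BM-Treg and 42.7, 36.7, 40.8 and 42.3 CPM in SP-Treg, without overlap (log2 fold change 0.65 ± 0.11, adjusted p = 0.0030, edgeR). Sipa1, which switches Rap1 off, was at 155.4 to 187.6 CPM in BM-Treg and 112.1 to 140.2 CPM in SP-Treg (log2 fold change 0.42 ± 0.10, adjusted p = 0.0196, edgeR). Sharpin, which binds alpha tails, had a log2 fold change of 0.37 ± 0.10 (adjusted p = 0.0377, edgeR). Cytip, which binds cytohesin-1 and limits LFA-1 adhesion, was at 318, 301, 291 and 336 CPM in BM-Treg and 419.8, 357, 428 and 409 CPM in SP-Treg and was lower in every BM-Treg library (log2 fold change -0.37 ± 0.099, adjusted p = 0.0291, edgeR), and on the FPKM scale its log2 fold change was -0.06. The call of Sipa1 did not last without BM-Treg replicate 3 or 4 (adjusted p = 0.062 and 0.0535, edgeR), that of Sharpin when any library other than BM-Treg replicate 1 was left out (0.0629 to 0.110), and that of Cytip without BM-Treg replicate 1, 2 or 3 or SP-Treg replicate 1 or 3 (0.0647 to 0.104).

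In the adhesion complex, the proteins that join integrins to actin and to kinases, 22 of 25 genes were tested, 2 rose and 2 fell (18.2% called, against 8.75% of all genes). Actn1, the α-actinin that crosslinks actin, was at 14.7, 9.73, 13.1 and 9.02 CPM in BM-Treg and 16.5, 19.4, 31.4 and 30.8 CPM in SP-Treg, without overlap (log2 fold change -1.07 ± 0.23, adjusted p = 0.0119, edgeR). Zyx, which marks mature adhesions, was at 93.7, 87.02, 89.9 and 104 CPM in BM-Treg and 68.03, 77.4, 67.1 and 60.8 CPM in SP-Treg (log2 fold change 0.45 ± 0.11, adjusted p = 0.0159, edgeR). Crkl, an adaptor upstream of Rap1, was higher with overlap (log2 fold change 0.37 ± 0.11, adjusted p = 0.0492, edgeR), and Ptk2, the focal adhesion kinase, was lower at low levels of 0 to 0.482 CPM in BM-Treg and 0.954 to 1.83 CPM in SP-Treg (log2 fold change -2.49 ± 0.61, adjusted p = 0.0207, edgeR). The call of Crkl did not last without BM-Treg replicate 1, 2 or 3 or SP-Treg replicate 2, 3 or 4 (adjusted p from 0.074 to 0.155, edgeR), and its log2 fold change was 0.10 both with a batch term (adjusted p = 0.763, edgeR) and within batch 3. Nor did the call of Ptk2 last without BM-Treg replicate 1 or 2 or SP-Treg replicate 2 (adjusted p from 0.0502 to 0.0827, edgeR). Ptk2 passed the expression filter through SP-Treg only, so a call as lower was the only one open to it. The share of 18.2% includes this call.

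Among 9 tested lateral partners, tetraspanins and other membrane proteins that sit beside integrins, 1 rose and none fell (11.1% called, near the 8.75% of all genes). It was Cd37, a tetraspanin of leukocytes, at 359.7, 386, 459 and 347 CPM in BM-Treg and 227, 278, 249.7 and 231 CPM in SP-Treg, without overlap (log2 fold change 0.65 ± 0.11, adjusted p = 0.0027, edgeR). Of 19 ligand genes only 7 were tested, and 2 fell, where 5.02% of all genes did. These 2 passed the expression filter through SP-Treg only, so a call as lower was the only one open to them. Vcam1, the ligand of α4β1, was at 1.15, 0.741, 0.7004 and 0.167 CPM in BM-Treg and 7.04, 8.44, 3.51 and 2.79 CPM in SP-Treg (log2 fold change -2.92 ± 0.48, adjusted p = 0.0022, edgeR), and Lama5, a laminin chain, was at 0.525 to 1.09 CPM in BM-Treg and 1.72 to 2.94 CPM in SP-Treg (log2 fold change -1.65 ± 0.42, adjusted p = 0.0246, edgeR). Both are made mainly by stromal cells and by macrophages in the case of Vcam1, which also stands among the 8 macrophage markers. Of those markers 4 were tested and 1 was called, Vcam1 itself. Lyz2 was at 10.3 to 12.6 CPM in BM-Treg and 3.52 to 18.9 CPM in SP-Treg, Cd68 at 1.80 to 5.04 and 3.02 to 5.94 CPM, and Csf1r at 0.752 to 3.34 and 0.575 to 2.68 CPM, each with overlap. Among the untested ones Emr1, Cd14 and Mertk overlapped at no more than 1.003 CPM, and Fcgr1 was at 0 in BM-Treg and at 0.0718 to 0.0836 CPM in SP-Treg. The part of macrophages in the result was not tested. The call of Lama5 did not last without BM-Treg replicate 1, 2 or 3 or SP-Treg replicate 4 (adjusted p from 0.0726 to 0.0865, edgeR), and its log2 fold change was -0.96 with a batch term (adjusted p = 0.447, edgeR) and -0.86 within batch 3. That of Vcam1 was -4.96 with a batch term, where the contrast rests on BM-Treg replicate 4, with 2 expected counts of Vcam1.

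**Figure D5:**
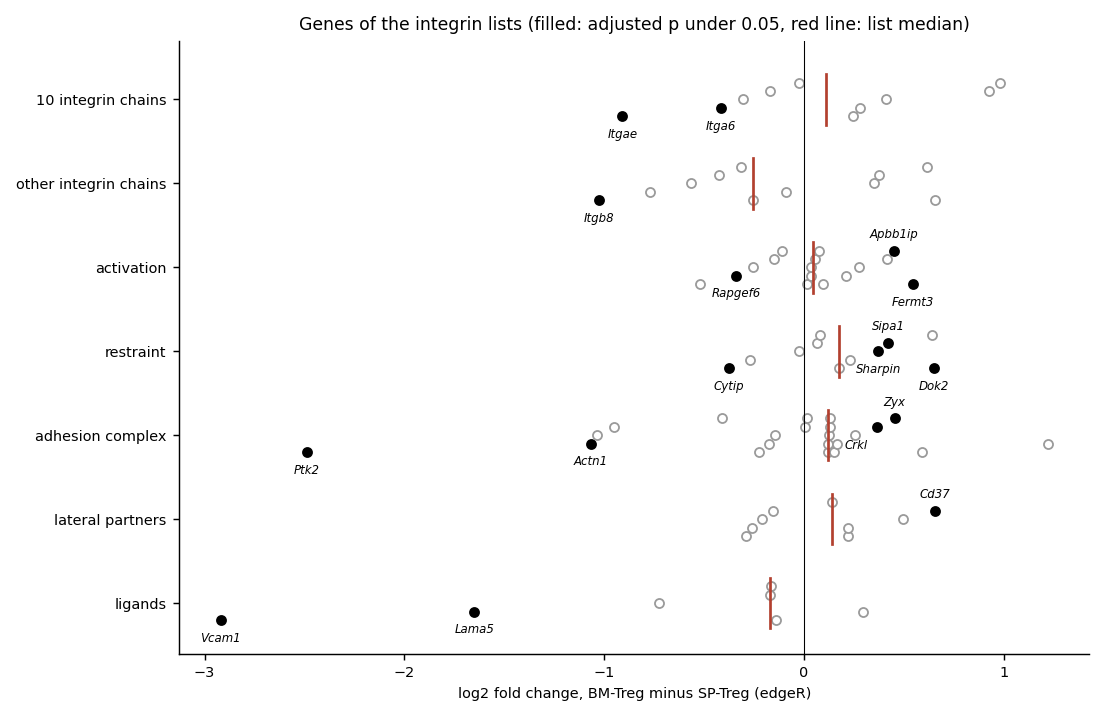
Log2 fold change of BM-Treg minus SP-Treg (edgeR) of every tested gene in the 10 integrin chains and in the 6 lists around them, filled and named where the adjusted p was under 0.05, with a red line at each list's median. Called genes stand on both sides of 0 in the activation, restraint and adhesion complex lists, and to the left of 0 among the ligands and the other chains.

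With a batch term, 4 of the 15 calls lasted, those of Itgb8 and Vcam1 as lower and of Fermt3 and Dok2 as higher in BM-Treg, and 258 of all genes tested were called in place of 1172. The contrast then rests on BM-Treg replicate 4, in which Vcam1 had 2 expected counts. Calls over all genes were 499 higher and 673 lower in BM-Treg on counts, and 482 higher and 283 lower on log2(FPKM + 1) with limma.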

How the data were processed

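RNA of 8 libraries (4 per tissue) was amplified by a single primer isothermal method, without molecular identifiers or strand, and read from 1 end. Per the submitters' processing notes, the tools were cutadapt 1.9, STAR 2.5.2a and RSEM 1.2.30 on GRCm38. The authors deposited expected counts (not normalized between libraries) and FPKM values per gene and per transcript. Columns were assigned to libraries by their names. No library was a duplicate of another (chi-square per degree of freedom at least 14.3 within a tissue). Coordinates are those of the deposited tables, and transcripts and their sequences come from GENCODE M21 (GRCm38).

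Expected counts were rounded, filtered with edgeR's default filter, scaled by TMM and put through the quasi-likelihood test of edgeR, with all 8 libraries and no covariate (Benjamini-Hochberg, threshold 0.05). CPM uses TMM library sizes. The software was edgeR 4.0.16, DESeq2 1.42.0 and limma 3.58.1 in R 4.3.3, and the tests were first run on simulated data. Ratios of partner chains and shares of transcripts carry no test. Alternatives were DESeq2, limma (voom on counts, trend on log2(FPKM + 1) and log2(FPKM + 0.1)), other filters, no mitochondrially encoded genes, a batch term, batch 3 alone, a replicate block and each library left out. Genes named are the 10 chains, other chains that passed the filter, up to 4 called genes per direction in each other list, tested genes that overlap a chain, and Foxp3. The members and lists were chosen with earlier results of these data known. Of 191 list entries 190 matched a gene. Totals of counts set the precision at low levels, and this covers counting error only. FPKM of genes with several transcripts also depends on how RSEM divided their reads.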

Additional observations from a re-analysis of the deposited data

Results flagged for a closer look

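Among 98 groups of 4 libraries (each tissue for 39 named genes, 8 partner ratios and 2 transcript shares), 5 held a library far from the other 3 by Dixon's criterion, about as many as the 1 in 20 that chance gives. Itgb8 was at 140.1 CPM in SP-Treg replicate 1 and at 90.9 to 96.5 CPM in the other spleen libraries. The log2 ratio of Itga2 to Itgb1 was -6.06 in SP-Treg replicate 4, against -5.04 to -4.86 in the others. The rest were genes of low level. Itga10 was at 3.28 CPM in BM-Treg replicate 1 and at 1.002 to 1.16 CPM in the other marrow libraries, Itgb5 was at 1.53 CPM in BM-Treg replicate 3 against 0.876 to 0.919 CPM, and Lama5 was at 1.09 CPM in BM-Treg replicate 4 against 0.525 to 0.602 CPM.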

How the results depend on the processing

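The 2 calls among the 10 integrin chains became 4 with DESeq2, 0 with limma on log2(FPKM + 1), 0 on log2(FPKM + 0.1), 0 with a batch term and 0 to 2 with 1 library left out. The 15 calls in the lists around them became 9 on log2(FPKM + 1), 4 with a batch term and 9 to 14 with 1 library left out, and the 1172 calls over all genes became 765, 728, 258 and 690 to 1048 on log2(FPKM + 1), on log2(FPKM + 0.1), with a batch term and with 1 library left out. Apart from the replicate block, these counts stayed within 1.5 times in the other settings. Over 189 refits of single chains, 157 kept their direction and their side of the threshold, 17 lost a call, 6 gained one and 9 changed sign, all 9 for Itgb1, which was at 0.018 with limma-voom, 0.092 and 0.093 on the FPKM scales, 0.0029 with at least 10 counts in every library, 0.0039 in batch 3 alone and -0.17 to 0.18 with 1 library left out. Among other named genes, signs changed for Itga5 (0.22 in batch 3 alone, -0.73 to 0.15 with 1 library left out), Itgav (0.082 and 0.085 on the FPKM scales), Itgb5 (0.0037 on log2(FPKM + 1), -0.34 to 0.14 with 1 library left out), Pelo (0.23 with a batch term, 0.27 in batch 3 alone, -0.28 to 0.0059 with 1 library left out) and Cerkl (-0.20 and -0.19), none of them called. The cause of these changes was not tested. Replicate numbers did not pair the tissues: deviations of libraries with the same number correlated at -0.18 to 0.06, and 2 of 4 BM-Treg libraries correlated best with their own number. With the replicate block, 1 of the 2 calls lasted (Itga6), Itgae had a log2 fold change of -0.85 (adjusted p = 0.0673, edgeR), Itgb1 was at 0.019, and 12 genes of the lists were called. Depth limits Itga1, Ptk2, Vcam1, Lama5 and the other chains under 5 CPM, and with 1 BM-Treg library in batch 3, values within that batch carry no test.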
